A study of Rattus norvegicus with 10 samples.

Results

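The genes described here are 42 skeletal muscle genes, chosen by name: 14 that encode proteins of fast-twitch fibers, 6 of slow-twitch fibers and 22 that both fiber types use. Each was represented by the probe set that carries its symbol alone in the platform annotation and has the highest mean over all arrays. All 42 were measured, out of 14217 genes with such a probe set. The arrays came from mammary tumors of female Sprague-Dawley rats, induced with 1 oral dose of DMBA, a chemical carcinogen, at 100 mg/kg. The final samples (n = 5) were taken from rats aged 19 weeks, in the 7th week after the biopsy, when 6 weekly intravenous doses of adriamycin (doxorubicin, an anthracycline) at 1 mg/kg had been given. The basal samples (n = 5) were needle biopsies of the same tumors (codes 09I1, 11D2, 12I1, 29I1, 43D1), taken from untreated rats aged 12 weeks. The labels call the final samples the total tumor, whereas the design text calls both samplings needle biopsies, and no untreated tumor of the later age is among the samples used here. Treatment, age, the kind of sample and the run of array codes, which differ between the groups, therefore cannot be told apart. How many rats carried the 5 tumors is not stated in the labels, and the p-values below reflect only how these tumors vary.

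Skeletal muscle contracts by sliding thin filaments of actin, troponin and tropomyosin along thick filaments of myosin, when calcium is released from the sarcoplasmic reticulum. Fast and slow fibers build this machine from different members of the same gene families, and fast fibers rely more on glycolysis. In the rat the mammary glands lie in the subcutis, close to a thin sheet of striated skin muscle. Mammary epithelium and stroma are not known to build sarcomeres, while myoepithelial cells and vessel walls use smooth muscle forms of actin and myosin.

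All values are log2 signals, and a change is final minus basal within a tumor. The median of all probe sets lay between 5.93 and 6.11 log2 units on the 10 arrays, and the lower quartile, used here as a mark of low signal, between 4.0003 and 4.29. The final array of 09I1 stood apart: its beta-actin control probe set for the transcript's end exceeded the one for its start by 2.61 log2 units (0.72 to 0.96 on the 9 remaining arrays), and its median correlation with the others was 0.938, against 0.975 to 0.984.

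The muscle genes were high on 1 array, the final sample of tumor 11D2. There 30 of the 42 lay over 1 log2 unit above the median of their other 9 arrays, where 1.62% of all genes did. They were 12 of the 14 fast genes, 17 of the 22 shared genes and 1 of the 6 slow genes. The members were chosen with earlier results of these data known, so these shares describe the array and are not a test. In Neb and Trdn, counted here and in the stricter count below, the probe set was the brightest only because this array entered the mean. The median distance from the other arrays was 3.62 log2 units for the fast genes, 0.22 for the slow genes and 2.04 for the shared genes, against 0.0010 for all genes. In a bulk sample, more muscle cells and more muscle RNA per cell cannot be told apart, and each tumor gave 1 sample at each time, so these differences have no replicate check within a tumor.

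**Figure D1:**
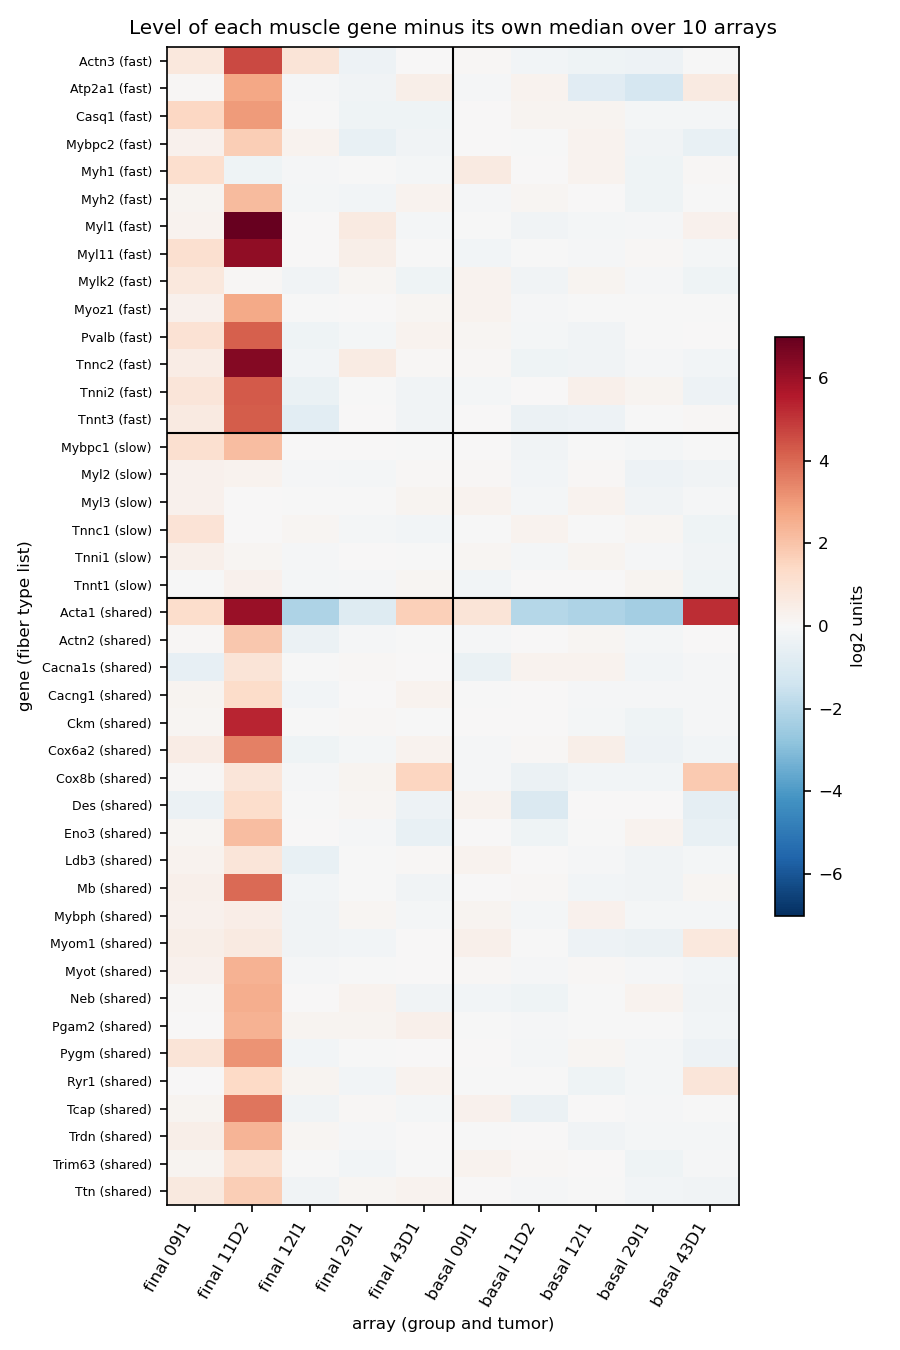
Each row is 1 of the 42 muscle genes, grouped as fast, slow and shared, and each column 1 array, with final samples on the left and basal samples on the right. Color gives the log2 level minus the gene's own median over the 10 arrays. The column of the final sample of 11D2 is red in most fast and shared rows and pale in most slow rows, and Acta1 is also red in the basal sample of 43D1.

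The same count was 6 of 42 on the final array of 09I1 (4 fast, 1 slow and 1 shared gene), where 7.62% of all genes lay that far above their other arrays. It was 2 on the final array of 43D1 (1.6% of all genes), 2 on the basal array of 43D1 (1.59%) and 1 on the basal array of 09I1 (1.59%). No member lay that high on the other 5 arrays: the final arrays of 12I1 (0.626% of all genes) and 29I1 (0.619%) and the basal arrays of 11D2 (0.921%), 12I1 (2.03%) and 29I1 (3.52%). With both arrays of 09I1 left out, the count on the final array of 11D2 was 30.

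A stricter count asked for genes over 1 log2 unit above every other array. In the final sample of 11D2 there were 42 such genes, 0.295% of all genes, and 26 of them were members: 12 fast, 1 slow and 13 shared genes. Of the other 16, 9 stood on lists of further muscle genes and 7 on none of the lists used here. On each of the other 9 arrays, 0 members met that count, where the share of all genes was 0.014% (final 12I1) to 2.11% (final 09I1), so that 0 of 42 is near the background on most of them. Over those 9 arrays the members had a median range of 0.84 log2 units, close to the 0.89 of all genes. There 25 of 42 spanned under 1 log2 unit and 2 spanned more than 2.

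**Figure D2:**
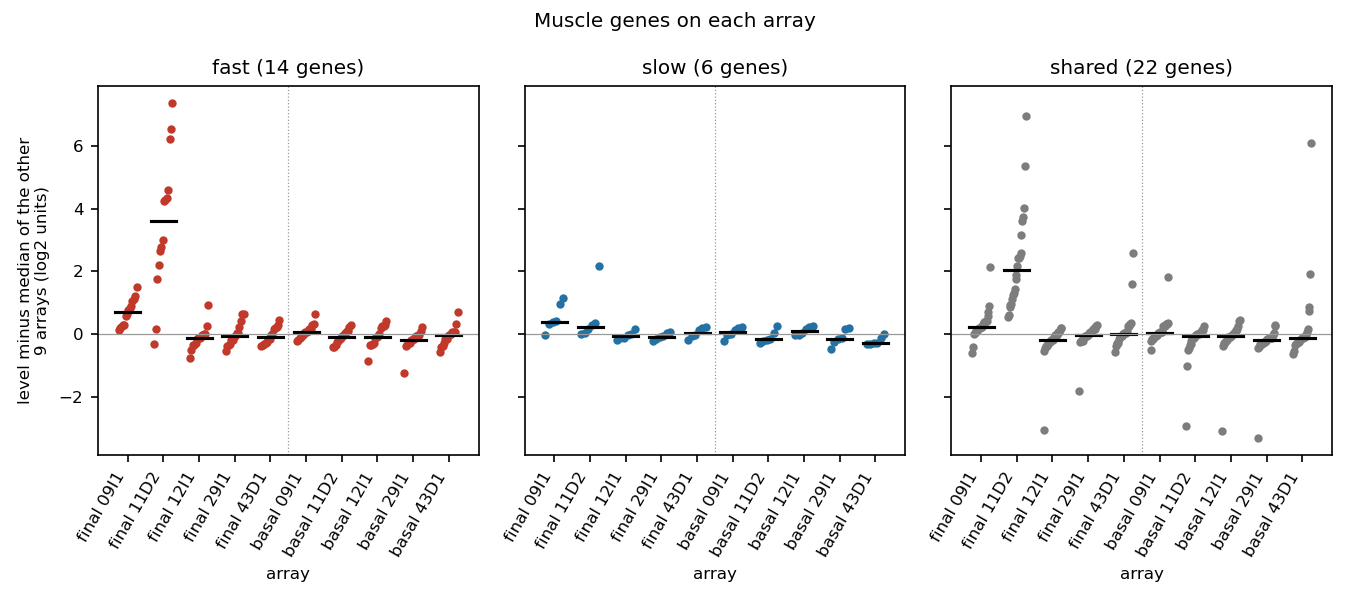
Each point is 1 gene on 1 array, given as its log2 level minus the median of its other 9 arrays, in panels for 14 fast, 6 slow and 22 shared genes, with final samples left of basal samples. Black bars are medians over a panel's genes. In the final sample of 11D2 the bars stand at 3.62 (fast), 0.22 (slow) and 2.04 (shared), and the highest point in the basal sample of 43D1 is Acta1.

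By tumor, the median change of the fast genes was 3.50 log2 units in 11D2 and 0.54 in 09I1, while tumors 12I1, 29I1 and 43D1 gave -0.035, 0.062 and 0.059. For the slow genes it was 0.27 in 11D2 and 0.23 in 09I1, while 12I1, 29I1 and 43D1 gave -0.16, 0.15 and 0.27. For the shared genes it was 2.32 in 11D2 and 0.14 in 09I1, while 12I1, 29I1 and 43D1 gave -0.052, 0.17 and 0.038. Tumor 11D2 therefore stood apart from the other 4 in its fast and shared genes and not in its slow genes. The number of members over 1 log2 unit higher in the final sample was 30 in 11D2, where 3.21% of all genes were, 3 in 09I1 (10.8%) and 0 in 43D1 (3.27%). It was 1 in 12I1 (1.7%) and likewise 1 in 29I1 (1.39%). In 43D1, 1 member was over 1 log2 unit lower, Acta1, as were 2.61% of all genes. In the other tumors 0 members were lower by that much, against 7.38% of all genes in 09I1, 1.04% in 11D2, 2.03% in 12I1 and 5.24% in 29I1.

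No member passed the test between final and basal samples across the 5 tumors. With limma, 0 of the 32 members that passed the filter on low signal had an adjusted p under 0.05, as had 0% of all tested probe sets, and the members' adjusted p began at 0.977. Before adjustment, 0 members were higher with p under 0.05, against 1.78% of tested genes, and 0 were lower, against 1.1%. With array weights, which gave the pair of 11D2 a weight of 3.09, 17 of 32 were higher before adjustment, against 4.47% of tested genes, and 0 after it. The methods' t-test also gave 0 and 0. The other 10 members, Cacng1, Mybpc1, Mybph, Myh2, Myl2, Myot, Neb, Tnnt1, Trdn and Trim63, had means in the lowest 25% of probe sets and were not in that fit. A member can pass that filter through 1 high array, so the 32 are not read as a set. With no filter, 0 of 42 had an adjusted p under 0.05, and 1, Ttn, had an unadjusted p under 0.05.

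The mean change was positive for all 42 members, with a median of 0.60 log2 units, against 0.026 for all genes. Without 11D2 that median was 0.086 and 33 of 42 were positive, and without 09I1 the median was 0.62. In 5 of 5 tumors 7 members were higher in the final sample, namely Actn3, Myl11, Myoz1, Tnnc2, Ckm, Pgam2 and Trdn, and 0 were lower. Among all genes the shares were 3.65% and 2.31%. The smallest change in each of those 7 genes was between 0.0089 and 0.086 log2 units, so that outside 11D2 some of these differences are close to 0. In 1 member, Pgam2, the groups did not overlap (0.429% of all genes were higher in this way, and 0.359% lower, with 0 members among them), and there the lowest final value was 3.92 and the highest basal value 3.91.

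The promoters of these genes are shown for the members on which the pattern turns: skeletal alpha-actin (Acta1) and muscle creatine kinase (Ckm), which differ in where they were high, and the fast and slow forms of troponin I (Tnni2 and Tnni1). They are RefSeq sequences of GRCr8, from 250 bases before to 50 bases after the annotated start, printed 5′ to 3′ on the gene's strand. Capitals mark E-boxes (CANNTG, the motif of the MyoD family), the CArG box of serum response factor, the MEF2 site and TATAA. All were searched on both strands except TATAA, which was searched on the gene's strand, and no matches of different motifs overlapped in the members' promoters. The regions are chr19:68784145-68784444 on the minus strand for Acta1, chr1:88189211-88189510 on the plus strand for Ckm, chr1:207024240-207024539 on the plus strand for Tnni2 and chr13:49781279-49781578 on the plus strand for Tnni1.
Acta1: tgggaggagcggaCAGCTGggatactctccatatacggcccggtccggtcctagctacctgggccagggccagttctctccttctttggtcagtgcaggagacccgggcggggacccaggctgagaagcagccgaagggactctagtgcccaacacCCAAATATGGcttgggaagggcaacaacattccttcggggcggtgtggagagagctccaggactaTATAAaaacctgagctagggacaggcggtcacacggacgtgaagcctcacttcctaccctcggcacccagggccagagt
Ckm: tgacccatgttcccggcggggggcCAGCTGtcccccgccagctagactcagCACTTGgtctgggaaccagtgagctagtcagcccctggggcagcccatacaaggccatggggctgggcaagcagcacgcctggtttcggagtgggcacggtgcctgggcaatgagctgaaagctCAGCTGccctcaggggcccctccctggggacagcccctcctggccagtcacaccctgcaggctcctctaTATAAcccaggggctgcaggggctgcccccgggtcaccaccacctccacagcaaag
Tnni2: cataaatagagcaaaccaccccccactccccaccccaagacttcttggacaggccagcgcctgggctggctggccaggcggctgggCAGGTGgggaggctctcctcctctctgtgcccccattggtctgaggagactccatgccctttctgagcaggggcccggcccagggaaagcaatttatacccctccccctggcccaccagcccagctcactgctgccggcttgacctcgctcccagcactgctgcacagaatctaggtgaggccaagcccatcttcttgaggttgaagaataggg
Tnni1: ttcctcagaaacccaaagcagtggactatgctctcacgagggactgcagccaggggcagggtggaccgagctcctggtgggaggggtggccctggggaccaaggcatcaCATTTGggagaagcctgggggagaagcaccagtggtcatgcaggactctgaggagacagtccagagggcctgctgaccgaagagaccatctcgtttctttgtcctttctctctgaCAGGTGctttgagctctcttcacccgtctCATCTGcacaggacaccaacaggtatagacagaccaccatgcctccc

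Acta1 holds 1 E-box, 1 CArG box and 1 TATAA in these letters, and Ckm 3 E-boxes and 1 TATAA. Tnni2 holds 1 E-box and Tnni1 3. Of the 42 members, 33 had exactly 1 promoter of 300 bases among the RefSeq promoters used. Symbols with more than 1 were left out, here and among the 24206 promoters used for comparison. An E-box stood in 29 of these 33 (87.9%), against 71.3% of those 24206. A TATAA stood in 13 (39.4% against 18.8%), a MEF2 site in 4 (12.1% against 3.38%) and a CArG box in 3 (9.09% against 1.65%). The CArG boxes were in Acta1, Ldb3 and the slow gene Myl3. E-boxes stood in 8 of 11 fast, 4 of 4 slow and 17 of 18 shared promoters.

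The thick filament was represented by myosin chains and their partners. Values of a gene are given below in the order of tumors 09I1, 11D2, 12I1, 29I1, 43D1, on the log2 scale. Myl1, the fast essential light chain of myosin, had 3.81, 10.93, 3.59, 4.21 and 3.43 in final samples, against 3.56, 3.34, 3.46, 3.49 and 3.88 in basal samples. Myl11, the fast regulatory light chain, had 5.07, 10.17, 3.98, 4.39 and 3.94 in final samples, against 3.76, 3.96, 3.89, 4.06 and 3.83 in basal samples. Both were high in the final sample of 11D2 and at or below about the lower quartile in most other samples, so the sizes of the changes in 11D2 (7.58 and 6.21 log2 units) are uncertain at the low end. Their mean changes were 1.65 ± 1.13 and 1.61 ± 0.88 log2 units (SE, n = 5 pairs), each with limma adjusted p = 0.977, and 0.16 and 0.46 without 11D2.

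The slow counterparts did not stand out on that array. Myl3, the slow essential light chain, which the heart also uses, had 5.28, 4.96, 4.95, 4.91 and 5.17 in final samples, against 5.19, 4.81, 5.20, 4.71 and 4.85 in basal samples. Myl2, the slow and cardiac regulatory light chain, had 4.16, 4.13, 3.77, 3.75 and 3.96 in final samples, against 3.96, 3.67, 3.95, 3.49 and 3.64 in basal samples. Final and basal values of both genes overlapped, and over all 10 arrays they spanned 0.57 log2 units (Myl3) and 0.67 (Myl2). Myl2 was below the lower quartile on 9 arrays and just above it in the final sample of 11D2, so its range is uncertain. Its change in 11D2 was 0.46 log2 units, the largest of the tumors, and -0.10 in its second probe set.

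Myosin binding protein C, which lies across the thick filament, was the exception to that split. Mybpc2, the fast form, had 7.40, 8.85, 7.36, 6.61 and 6.86 in final samples, against 7.15, 7.09, 7.35, 6.89 and 6.60 in basal samples. Mybpc1, the slow form, which fast fibers also make, had 4.94, 5.96, 3.79, 3.82 and 3.76 in final samples, against 3.80, 3.56, 3.78, 3.65 and 3.79 in basal samples. Mybpc1 was the 1 slow gene that stood out in the final sample of 11D2, with a change of 2.39 log2 units there and 1.14 in 09I1. Mybph, a related filament protein, had 4.24, 4.40, 3.71, 4.07 and 3.80 in final samples, against 4.16, 3.85, 4.26, 3.82 and 3.81 in basal samples. Its groups overlapped and it had the smallest range of the shared genes.

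The myosin heavy chains are the motors of the thick filament. Myh2, a heavy chain of fast oxidative fibers, had 3.42, 5.44, 3.07, 3.04 and 3.46 in final samples, against 3.13, 3.34, 3.23, 2.95 and 3.22 in basal samples. It was above the lower quartile only in the final sample of 11D2. Myh1, another fast heavy chain, had 11.84, 10.35, 10.55, 10.62 and 10.52 in final samples, against 11.26, 10.67, 10.89, 10.33 and 10.71 in basal samples. Its brightest probe set was bright on every array, highest in the final sample of 09I1, and lowest among the final samples in 11D2. All 5 Myh1 probe sets were lower in the final than in the basal sample of 11D2, by 0.072 to 0.46 log2 units. Myh4, the fastest rodent heavy chain and not a member, had 8.53 in the final sample of 11D2 and 2.85 in its basal sample. Why the probe sets annotated to Myh1 departed from Myh2 and Myh4 was not tested, and their levels are not read as muscle here.

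Mylk2, the kinase that phosphorylates the regulatory light chain of skeletal muscle, had 7.55, 6.89, 6.54, 6.96 and 6.52 in final samples, against 7.06, 6.54, 7.02, 6.72 and 6.52 in basal samples. Like Myh1 it was highest in the final sample of 09I1, and it was the other fast gene that did not stand out in 11D2. Its second, dimmer probe set was 0.59 log2 units higher in the final sample of 11D2 and below the lower quartile on all 10 arrays.

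The thin filament was represented by actin and by fast and slow forms of troponin. Troponin C binds calcium, troponin I holds the filament off and troponin T anchors the complex to tropomyosin. Tnnc2, fast troponin C, had 4.25, 10.19, 3.57, 4.31 and 3.86 in final samples, against 3.84, 3.45, 3.51, 3.66 and 3.55 in basal samples. Tnni2, fast troponin I, had 7.53, 10.97, 6.23, 6.64 and 6.45 in final samples, against 6.54, 6.73, 7.05, 6.86 and 6.34 in basal samples. Tnnt3, fast troponin T, had 4.58, 8.20, 3.23, 3.97 and 3.72 in final samples, against 3.99, 3.55, 3.62, 3.94 and 4.01 in basal samples. In each the final sample of 11D2 was the highest of the 10, by 3.44 to 5.89 log2 units over the next, with the final sample of 09I1 next in Tnni2 and Tnnt3. A second Tnnt3 probe set, below the lower quartile on all 10 arrays, was only 0.18 log2 units higher in the final sample of 11D2. It was highest in the final sample of 09I1. Among the 10 members with more than 1 probe set, 10 of 31 probe sets were over 1 log2 unit higher in 11D2.

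Tnnc1, the slow and cardiac troponin C, had 5.52, 4.58, 4.73, 4.42 and 4.39 in final samples, against 4.55, 4.82, 4.54, 4.73 and 4.28 in basal samples. Tnni1, slow troponin I, had 5.70, 5.45, 5.25, 5.36 and 5.30 in final samples, against 5.44, 5.18, 5.54, 5.22 and 5.07 in basal samples. Tnnt1, slow troponin T, had 3.57, 3.87, 3.47, 3.51 and 3.72 in final samples, against 3.39, 3.60, 3.60, 3.76 and 3.31 in basal samples. None of the 3 stood out in 11D2, Tnnc1 and Tnni1 were highest in the final sample of 09I1, and Tnnt1 was below the lower quartile on all 10 arrays. A second Tnni1 probe set differed by 0.34 log2 units in 11D2, close to the 0.27 of the first. Whether these probe sets would respond to slow muscle RNA cannot be told from these arrays, since none of the 10 shows them high.

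**Figure D3:**
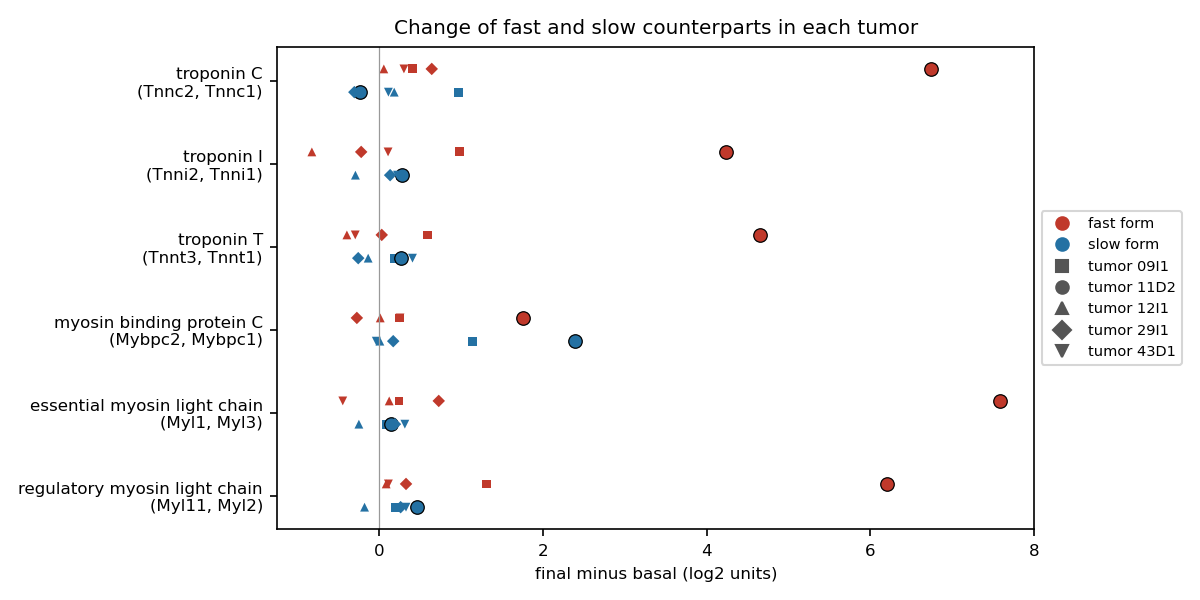
For 6 protein roles, points give final minus basal in log2 units for the fast form (red, upper) and the slow form (blue, lower), with 1 symbol per tumor and larger outlined circles for 11D2. The fast form lies to the right of the slow form in 11D2 in 5 of 6 roles, and myosin binding protein C is the exception.

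Set side by side in 6 roles, the change in 11D2 was larger for the fast than for the slow form in 5, with a median difference of 5.06 log2 units and a highest of 7.44, in the essential light chain. In myosin binding protein C the difference was -0.64. In the other tumors the fast form had the larger change in 4 of 6 roles in 09I1 and 29I1, 3 in 12I1 and 2 in 43D1, and the median differences ran from -0.16 to 0.28. The genes of a tumor share its 2 arrays, so the 6 roles are not replicates.

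Acta1, the actin of skeletal muscle thin filaments, had the widest range of all members, 8.45 log2 units. It had 7.07, 11.89, 3.71, 4.94 and 7.52 in final samples, against 6.76, 3.85, 3.68, 3.45 and 11.02 in basal samples. The final sample of 11D2 was the highest, but the basal sample of 43D1 came next, and both samples of 43D1 and of 09I1 lay above those of 12I1. Its mean change was 1.28 ± 1.42 log2 units (SE, n = 5 pairs), with limma adjusted p = 0.977, and -0.42 without 11D2. By tumor the change was 8.05 in 11D2 and -3.50 in 43D1. Its promoter, printed above, is the one of the 4 shown with a CArG box.

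In the basal sample of 43D1, Acta1 stood 6.08 log2 units above its other arrays while Ckm was at -0.076, Myl1 at 0.31 and Tnnc2 at -0.29 relative to theirs. By brightest probe sets, the only other member over 1 log2 unit above its other arrays there was Cox8b, at 1.93. Cox8b is the muscle and brown fat form of a cytochrome oxidase subunit. Ryr1, the calcium release channel, stood 0.88 above and Myom1, a protein of the M band, 0.73. A second, dimmer Ldb3 probe set stood 1.20 above, whereas the brightest stood at -0.14. Of 43 measured other genes of mature muscle 1 stood over 1 log2 unit above, Pdlim3, at 2.71. Of 11 measured myogenic regulators 1 did, Mef2c, at 1.24, where 1.59% of all genes did. On that array 7 of 13 measured smooth muscle and myoepithelial genes also lay over 1 log2 unit above their other arrays, and 5 did on the basal array of 09I1, against 0 or 1 on the other 8. Actg2, the smooth muscle gamma-actin, had 12.38 in the basal sample of 43D1 and 6.21 to 10.30 on the other arrays. Myh11, smooth muscle myosin, had 12.09 there and 6.71 to 11.20 elsewhere, and Synm, an intermediate filament protein that binds desmin, had 10.84 there and 8.13 to 10.76 elsewhere. Of the same list, Krt14, a basal keratin, stood at -0.97 and Oxtr, the oxytocin receptor, at -0.76 relative to their other arrays in the basal sample of 43D1, both named after the values were seen. In the final sample of 11D2, 0 of the 13 stood over 1 log2 unit above and 3 stood over 1 below their other arrays. Within tumor 11D2, however, 3 of the 13 were over 1 log2 unit higher in the final sample, as Acta1 was: Myh11 by 1.79, Actg2 by 1.36 and Synm by 1.09. The summed level of the smooth muscle and myoepithelial list was 119.84 to 129.77 in final samples and 117.16 to 139.87 in basal samples, and no gene of it was below the lower quartile on all 10 arrays. The part of smooth muscle or myoepithelial cells in the Acta1 level was not tested.

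**Figure D4:**
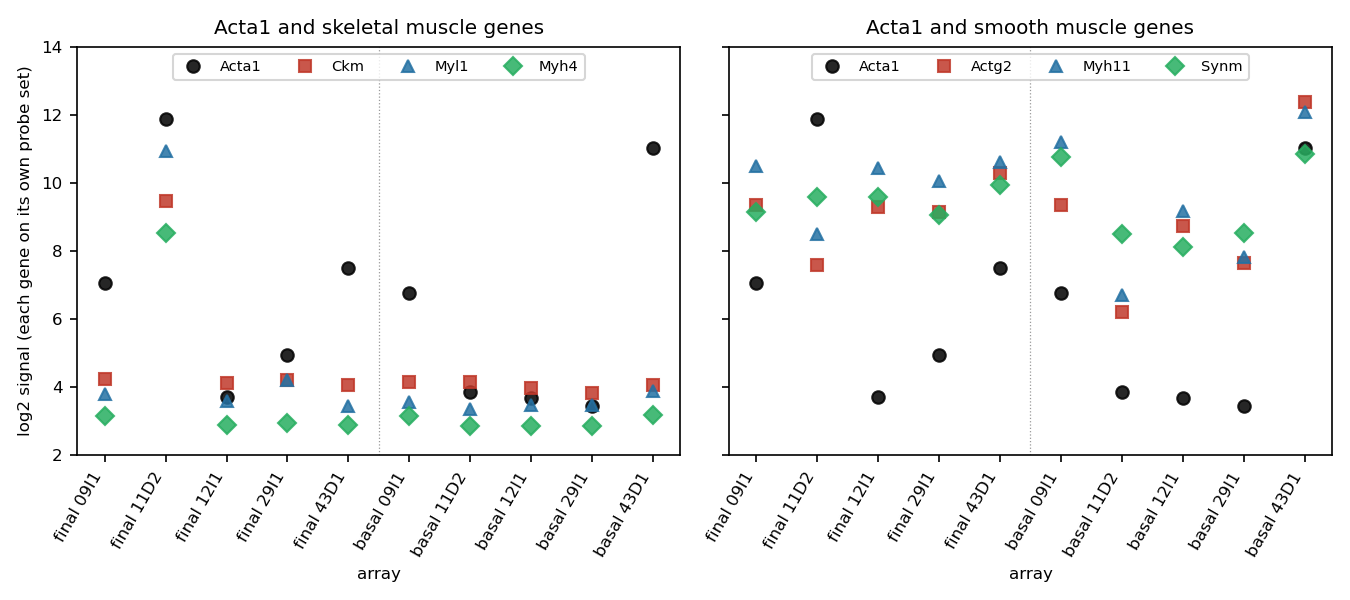
Log2 signal on each array, final samples left and basal samples right of the dotted line, for Acta1 with 3 skeletal muscle genes (left) and with 3 smooth muscle genes (right). Each gene is on its own probe set, so heights are compared between arrays and not between genes. Acta1 is joined by Ckm, Myl1 and Myh4 in the final sample of 11D2 (11.89 for Acta1), and by Actg2, Myh11 and Synm in the basal sample of 43D1 (11.02 for Acta1).

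The Z disc and the elastic scaffold anchor the filaments. Actn3, the alpha-actinin of fast fibers, had 5.93, 9.77, 6.09, 4.82 and 5.18 in final samples, against 5.27, 4.95, 4.88, 4.79 and 5.17 in basal samples. Its mean change was 1.35 ± 0.68 log2 units (SE, n = 5 pairs), with limma adjusted p = 0.977, higher in 5 of 5 tumors, and 0.48 without 11D2. Myoz1, a calcineurin-binding Z disc protein of fast fibers, had 4.20, 6.57, 3.90, 3.94 and 4.06 in final samples, against 4.19, 3.82, 3.87, 3.90 and 3.87 in basal samples. Actn3 was high in the final sample of 11D2 and 1.22 log2 units higher in the final than in the basal sample of 12I1, the one member past 1 log2 unit in that tumor.

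Among shared genes of this scaffold, Tcap, which caps titin, had 5.07, 8.58, 4.62, 4.91 and 4.70 in final samples, against 5.17, 4.44, 4.87, 4.76 and 4.84 in basal samples. Neb, nebulin, the ruler of the thin filament, had 3.65, 6.13, 3.62, 3.84 and 3.32 in final samples, against 3.40, 3.28, 3.54, 3.82 and 3.32 in basal samples. Both were high in the final sample of 11D2 only, although 2 further Neb probe sets, which lay below the lower quartile on at least 9 arrays, differed by 0.062 and -0.11 log2 units in 11D2. Ldb3, a Z disc adaptor, had 5.14, 5.76, 4.38, 4.88 and 4.99 in final samples, against 5.16, 4.90, 4.82, 4.64 and 4.76 in basal samples. Myom1, which links myosin tails in the M band, had 4.76, 4.94, 4.06, 4.13 and 4.33 in final samples, against 4.68, 4.33, 3.95, 3.92 and 5.06 in basal samples. Both spanned less than Tcap and Neb, 1.38 log2 units (Ldb3) and 1.14 (Myom1). Of the 6 Ldb3 probe sets, 2 dimmer ones were 1.66 and 1.15 log2 units higher in the final sample of 11D2, where the brightest was 0.86 higher. Those 2 were also high in the basal sample of 43D1, at 5.45 and 4.29, against 5.43 and 4.53 in the final sample of 11D2.

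Actn2, the alpha-actinin of all fibers and of the heart, Myot, a Z disc protein, Ttn, the giant elastic protein titin, and Des, the intermediate filament protein desmin, had changes in 11D2 of 1.83, 2.54, 1.82 and 2.24 log2 units. Ttn had the smallest unadjusted p of the tested members (0.053, limma), with a mean change of 0.62 ± 0.27 log2 units (SE, n = 5 pairs), higher in 4 of 5 tumors, and with adjusted p = 0.977. Des, which smooth muscle also makes, was high in the final sample of 11D2 at 8.63 and lowest in its basal sample at 6.39, with 6.80 to 7.67 elsewhere.

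Genes of excitation and calcium handling were higher in the final sample of 11D2 as well. Atp2a1, the calcium pump of fast fibers, had 6.98, 9.64, 6.84, 6.68 and 7.30 in final samples, against 6.85, 7.16, 6.14, 5.74 and 7.57 in basal samples. Casq1, which stores calcium in the reticulum of fast fibers, had 5.25, 6.75, 3.74, 3.47 and 3.47 in final samples, against 3.82, 3.99, 3.95, 3.64 and 3.67 in basal samples. Pvalb, the calcium buffer parvalbumin of fast fibers, had 5.38, 8.56, 4.03, 4.21 and 4.63 in final samples, against 4.50, 4.24, 4.12, 4.33 and 4.39 in basal samples. All 3 peaked in the final sample of 11D2, while Casq1 and Pvalb had their second highest value in the final sample of 09I1 and Atp2a1 in the basal sample of 43D1.

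In 11D2, Trdn, triadin, which ties calcium stores to the release channel, had a change of 2.40 log2 units, close to the 2.49 of Atp2a1. The channel genes had smaller changes there. Ryr1 had one of 1.42, Cacng1, a subunit of the voltage sensor, one of 1.26, and Cacna1s, the voltage sensor itself, one of 0.67. Trdn and Cacng1 were below the lower quartile on the other 9 arrays, so their sizes are uncertain. Of the 4 Trdn probe sets only the brightest was over 1 log2 unit higher in 11D2. It was the brightest only with the final array of 11D2 in the mean, so the choice of this probe set is not independent of that difference.

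Energy supply was represented by 7 genes. Ckm, creatine kinase of muscle, which buffers ATP, had 4.24, 9.47, 4.12, 4.20 and 4.07 in final samples, against 4.14, 4.14, 3.96, 3.84 and 4.06 in basal samples. Its other 9 values lay within 0.40 log2 units, so the change of 5.33 in 11D2 rests on 1 array. Mb, myoglobin, the oxygen store of oxidative fibers, had 4.39, 8.02, 3.84, 3.9996 and 3.77 in final samples, against 4.06, 4.14, 3.84, 3.76 and 4.17 in basal samples. Cox6a2, the heart and muscle form of a cytochrome oxidase subunit, had 4.78, 7.78, 3.97, 4.11 and 4.51 in final samples, against 4.19, 4.34, 4.66, 3.89 and 4.08 in basal samples. Mb and Cox6a2, like Ckm, were highest in the final sample of 11D2, and their other 9 values overlapped between the groups.

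Pygm, the muscle glycogen phosphorylase, had 5.57, 7.84, 4.50, 4.68 and 4.68 in final samples, against 4.72, 4.56, 4.82, 4.57 and 4.33 in basal samples. Eno3, the muscle enolase, had 6.62, 8.61, 6.50, 6.40 and 5.93 in final samples, against 6.49, 6.17, 6.43, 6.68 and 5.96 in basal samples. All 3 Pygm probe sets were higher in the final sample of 11D2, by 1.88 to 3.28 log2 units. Pgam2, the muscle phosphoglycerate mutase, had a change of 2.49 in 11D2 and of 0.0089 to 0.52 in the other tumors.

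Cox8b had 4.11, 4.89, 3.93, 4.20 and 5.53 in final samples, against 3.94, 3.62, 3.85, 3.83 and 5.87 in basal samples. Unlike Cox6a2 it was highest in both samples of 43D1, and only then in the final sample of 11D2. Ucp1, the uncoupling protein of brown fat, chosen after the values were seen, was below the lower quartile on 9 of 10 arrays and had 4.02 in the final and 3.93 in the basal sample of 43D1.

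Trim63, a ubiquitin ligase of muscle wasting, had 3.82, 4.73, 3.58, 3.44 and 3.60 in final samples, against 3.86, 3.74, 3.67, 3.36 and 3.54 in basal samples. It was highest in the final sample of 11D2, and its change there was 0.99 log2 units.

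Further muscle genes outside the members were examined as lists. Of 6 other fast or glycolytic fiber genes, 3 lay over 1 log2 unit above their other arrays in the final sample of 11D2, namely Myh4, Ampd1, the muscle AMP deaminase, and Myom2, with changes in 11D2 of 5.69, 3.55 and 2.72 log2 units. Of 8 measured other slow fiber genes 1 did, Csrp3, a Z disc protein of slow and cardiac muscle, with a change of 2.16. Myoz2, of the same list, fell just short, at 0.998 above its other arrays, with a change of 1.15. Myh7, the slow myosin heavy chain, chosen after the values were seen, had 3.39 in the final sample of 11D2 and 3.51 in its basal sample, below the lower quartile. Of 43 other genes of mature muscle 11 lay over 1 log2 unit above their other arrays, led by Klhl41, Cmya5 and Hjv with changes of 3.86, 2.87 and 2.75. Only 3 of the 6 fast, 5 of the 8 slow and 26 of the 43 mature muscle genes passed the filter on low signal and were tested. Of those tested, 0 had an adjusted p under 0.05 with limma across the 5 tumors. Myh4, Ampd1, Myom2, Myoz2, Myh7, Klhl41, Cmya5 and Hjv were not in that fit. At an unadjusted p under 0.05 there was 1 higher, among the 26 tested genes of the mature muscle list, against 1.78% of all tested genes. There were 0 lower, against 1.1%.

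Genes of immature, injured or heart muscle were counted in the same way. In the final sample of 11D2, 0 of 9 developmental or regeneration genes, 0 of 11 myogenic regulators and 0 of 9 cardiac genes lay over 1 log2 unit above their other arrays. There 1.62% of all genes did, so 0 in lists this short is near the background. Myh8, the perinatal myosin heavy chain, Myod1, the myogenic master regulator, and Myl7, the atrial light chain, were below the lower quartile on all 10 arrays. A value below that mark does not show that a transcript is absent.

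Other cell types moved in 11D2 together with the muscle genes. Of 13 measured adipocyte genes 13 were higher in the final than in the basal sample, with a median change of 1.37 log2 units, and 7 lay over 1 log2 unit above their other arrays. Fabp4, a fatty acid carrier, Adipoq, the hormone adiponectin, and Cfd, adipsin, had changes of 4.13, 3.49 and 3.27. On the final array of 09I1, 6 of 13 lay that far above their other arrays, and no adipocyte gene was over 1 log2 unit above every other array in 11D2. All 12 fibroblast and matrix genes were higher in the final sample of 11D2, with a median change of 0.99, led by Dpt at 3.74, and all 12 were also higher in 12I1, where the median change of the fast members was -0.035. The summed levels were 75.54 to 94.99 in final and 73.20 to 89.82 in basal samples for adipocyte genes, with the top value in the final sample of 11D2, and 110.51 to 127.52 in final and 112.02 to 126.60 in basal samples for fibroblast genes. No gene of these 2 lists was below the lower quartile on all 10 arrays. In 11D2 the median change was 0.043 for 10 luminal epithelium genes and 0.19 for 7 nerve genes. The part of fat, stroma or sampled muscle next to the tumor in these levels was not tested.

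**Figure D5:**
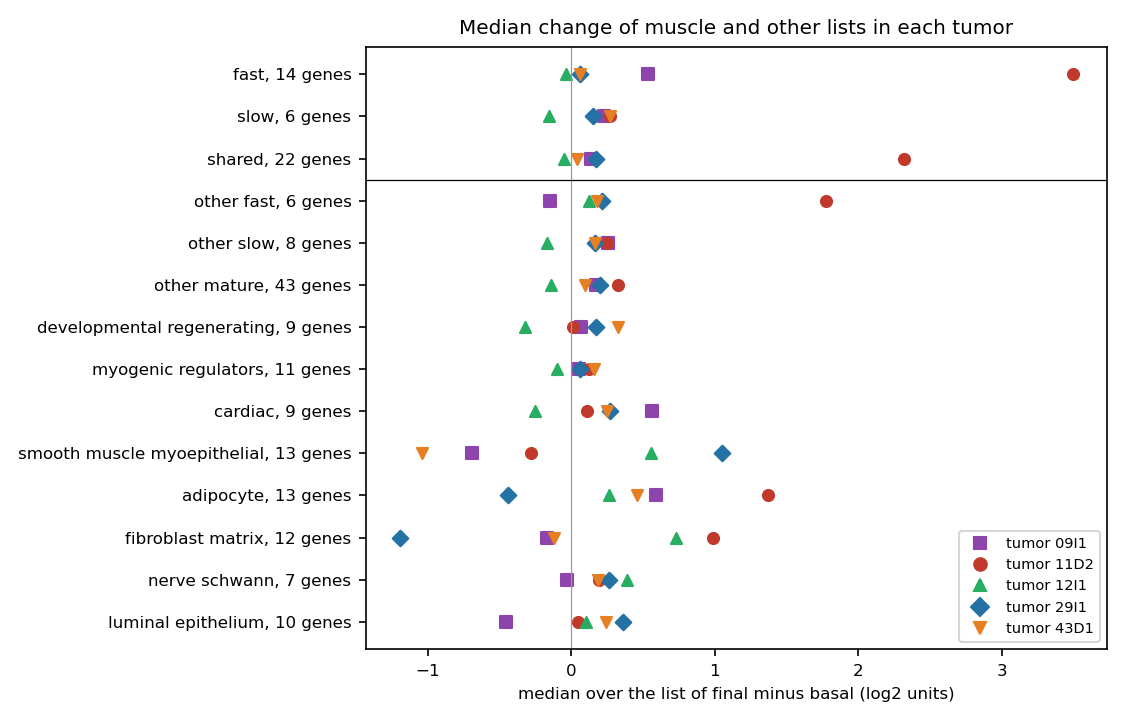
Median over each list of final minus basal, in log2 units, with 1 symbol per tumor. The fast, shared and other fast lists have their 11D2 symbol at 3.50, 2.32 and 1.77, apart from the other 4 tumors, whereas adipocyte and fibroblast lists spread over several tumors.

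Among the 50 genes with the largest change in 11D2, 16 were members (9 fast, 7 shared and 0 slow), 6 were on the lists of other fast or mature muscle genes, 3 on the adipocyte list and 1 on the fibroblast list. Of the 10 largest, 8 were members, with Acta1, Myl1, Tnnc2 and Myl11 in the first 4 places. Car3, a carbonic anhydrase of slow muscle and fat, was the 7th, at 5.22 log2 units, and was noted after the values were seen.

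The genes most like the members were sought over the 10 arrays by Pearson's correlation with the members' mean, each member first centred on its own mean. These correlations rest on the final sample of 11D2, which all genes share. The closest non-members were Csrp3 (r = 0.98), Ankrd23, a titin-binding ankyrin repeat protein (r = 0.98), Sh3bgr (r = 0.95), Pde4dip (r = 0.95), Vil1 (r = 0.94), Tmod4 (r = 0.92), Tmod1 (r = 0.92), Apobec2 (r = 0.91), Fhl1 (r = 0.90), Car4 (r = 0.90), Hrc (r = 0.89) and Sln (r = 0.89). Without that array, over 9 arrays, a different set came first: Vti1b, Trappc6b, Pex19, Adam1a, Dll3 and Mdga1, with r of 0.96 to 0.97. None of these 6 is on a muscle list, and each was highest on the final array of 09I1. With that array left out as well, a choice made after seeing the data, their r was 0.85 to 0.94 over 8 arrays. These genes were picked for high r over arrays that include those 8, where the members' centred mean ran only from -0.45 to -0.16 log2 units. Acta1 alone spanned 7.57 log2 units over the 9 arrays and weighs heavily in that mean. Among the members themselves, Pvalb had r = 0.99 with the mean of the other 41 over all arrays and r = 0.89 over 9, whereas Ckm had 0.98 and 0.59, and Neb 0.94 and -0.13. Over the 8 arrays r was 0.62 for Pvalb, 0.41 for Ckm and -0.55 for Neb.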

How the data were processed

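The values are log2 signals of Affymetrix rat arrays in a table deposited by the authors, summarised with RMA per the submitters' processing notes and handled in GeneSpring GX 7.3 per the labels' protocols. The deposited table holds 31099 probe sets, 57 of them controls, and names no genome build. Of the rest, 20826 carry 1 gene symbol, 436 several and 9780 none. The difference between final and basal samples was estimated in limma 3.58.1 (R 4.3.3) with an intensity trend and the tumor as a block, because the labels give both samples of a tumor 1 code and the authors used a paired test. Deviations of paired samples from their group means correlated by -0.13 to 0.21. Controls and the lowest 25% of probe sets by mean were left out, and p-values were adjusted by Benjamini-Hochberg over 23281 probe sets. Per-array values are given for all fast and slow genes and for the 8 shared genes with the largest and the 4 with the smallest range. Other genes named are up to 4 per list by their change in 11D2, list genes below the lower quartile on all arrays, and those most correlated with the members. Members and lists were chosen with earlier results of these data known. Alternatives were other filters, scalings, a floor, probe set means, array weights, no trend, other treatments of the block, the methods' paired t-test and each tumor left out. The number of arrays limits the precision.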

Additional observations from a re-analysis of the deposited data

Results flagged for a closer look

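In 29 of 92 sets of 5 samples (single genes, list medians or the beta-actin ratio), 1 sample lay far from the other 4 by Dixon's test, where chance gives about 4.6 (5% of sets). The sets share arrays, so they are not independent. The members were also chosen with earlier results of these data known, so the 29 are not read as evidence against chance. The final sample of 11D2 was the high one in 23. Among fast genes its log2 levels were 9.77 for Actn3, 9.64 for Atp2a1, 5.44 for Myh2, 10.93 for Myl1, 10.17 for Myl11, 6.57 for Myoz1, 10.19 for Tnnc2, 10.97 for Tnni2 and 8.20 for Tnnt3. Among shared genes they were 6.06 for Actn2, 4.59 for Cacng1, 9.47 for Ckm, 7.78 for Cox6a2, 8.61 for Eno3, 8.02 for Mb, 5.84 for Myot, 6.13 for Neb, 6.35 for Pgam2, 5.57 for Ryr1, 8.58 for Tcap and 5.39 for Trdn. The median level was 9.25 for the fast list and 6.00 for the shared list. No slow gene was among them.

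The final sample of 09I1 was far above the other final samples in Myh1, at 11.84, and in the beta-actin end-to-start difference, at 2.61. Among basal samples, 09I1 was far above the rest in Myoz1, at 4.19. The basal sample of 43D1 was far above the rest in Cox8b, at 5.87, and Ryr1, at 5.02, and far below them in the median level of the slow list, at 4.03.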

How the results depend on the processing

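Under 16 alternative settings, 658 of 672 mean changes of single members kept the sign of the reported value. Settings that alter only the filter, the block, the intensity trend or the test leave a mean change as it is. Their part of that agreement was therefore fixed in advance. No setting gave a member an adjusted p under 0.05 (the smallest was 0.347, with array weights). In the fit with no replicate block and in that with a random replicate block, 0 members passed an unadjusted p under 0.05, as in the paired fit. The median change of all members was 0.60 log2 units in each, as it must be with complete pairs. The count of members higher at an unadjusted p under 0.05 was 0 as reported, 1 with no filter, 1 with array medians centred, 17 of 32 with array weights, and 0 to 1 when a tumor was left out, 1 without 11D2, 12I1 or 43D1. The array weights gave the pair of 11D2 a weight of 3.09 and that of 09I1 0.225, and 4.47% of tested genes were then higher. With these weights the median change was 1.12 log2 units for all members (0.60 as reported), 1.60 for fast (0.83), 1.08 for shared (0.53) and 0.15 for slow genes (0.13), and the mean change was 3.55 for Myl1 (1.65), -0.17 for Myh1 and -0.073 for Tnnc1. Leaving out 1 tumor gave mean changes of -0.14 to 0.093 for Myh1, -0.060 to 0.26 for Tnnc1, -0.015 to 1.25 for Tnnt3, -0.42 to 2.47 for Acta1, -0.10 to 0.49 for Actn2, -0.077 to 0.65 for Des, -0.029 to 0.65 for Eno3, -0.057 to 0.22 for Mybph, -0.081 to 0.25 for Myom1, -0.047 to 0.46 for Ryr1 and -0.083 to 1.01 for Tcap. In 9 of these 11 genes the sign turned without 11D2, in Tnnc1 without 09I1, and in Myh1 without 09I1 or 29I1. The count of members standing out on the final array of 11D2 was 28 to 31 under the scaling, floor and probe set alternatives. Signals below the lower quartile limit the size of the differences of the dim genes.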
